A study of Mus musculus with 34 samples.

Results

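In thioglycollate elicited macrophages (TGEMs), 1162 loci held a Fos peak after treatment with Kdo2 lipid A (KLA) and no peak of any other AP-1 monomer that was assayed. They were selected on the peak lists themselves. The ATF3, Jun, JunD, Fos, Fra2 and JunB peaks of KLA-treated C57Bl/6EiJ cells were joined into 43246 loci wherever they shared 1 bp or more, and a locus was kept if Fos was its only monomer and it met no peak of ATF3, Jun or JunD from vehicle-treated (Veh) cells. The 6 lists differ in length, from 10619 Fra2 peaks and 13375 JunB peaks to 31640 JunD and 36745 ATF3 peaks, with 17480 for Jun and 24365 for Fos, so a weak peak of another monomer may fall short of its list. They are called Fos-alone loci here. The absence of the other monomers and the Fos counts are therefore properties of the selection and were not tested, whereas the readouts tested below come from lists that the selection did not use. The Balb/cJ lists cover monomers that the selection did use in C57Bl/6EiJ, so the selection alone can shift their shares. Fos-alone loci were compared with 7504 KLA loci that held Fos with at least 1 other monomer, 4479 with ATF3 alone and 1669 with JunD alone, all likewise free of ATF3, Jun and JunD peaks in Veh.

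The study used ChIP-seq to ask where related AP-1 proteins bind in macrophages at rest and after activation. TGEMs are macrophages recruited to the mouse peritoneum by an irritant broth, thioglycollate, and KLA is a pure agonist of Toll-like receptor 4. Cells came from male 8-week mice of the strains that the labels call C57Bl/6EiJ and Balb/cJ, were collected 3 days after the injection, and were treated for 1 h with KLA at 100 ng/mL or with PBS, the Veh group. Lists of Veh-treated PPARgKO cells on the C57Bl6 background, for ATF3, Jun and JunD, entered no comparison. The C57Bl/6EiJ lists cover the 6 AP-1 monomers, PU.1 and CEBPa in both treatments and PPARg in Veh, and the Balb/cJ lists cover the AP-1 monomers other than Fra2. Each condition has 1 list in which the replicate experiments were already combined, so the tests run over loci, and their p-values carry no information on the spread between mice or experiments. A list made from a population of cells also cannot separate fewer bound cells from weaker binding in each cell. The counts in the 6 C57Bl/6EiJ KLA lists of AP-1 summed to between 541268 and 10395306, and how replicate experiments were combined in a count is not given in the sources used here, so counts were used only to rank peaks within a list. PU.1 peaks lay at each of the 6 macrophage marker genes searched, from 2 at Adgre1 to 11 at Spi1 in Veh and from 3 to 14 in KLA, against none at Cd3e, Cd3g and Pax5 of T and B cells, although Cd79a, a B cell gene, had 3 in each treatment and Cd3d had 1 in Veh. At genes of neutrophils, which also express PU.1, Mpo had 2 in Veh, as many as Adgre1, Elane had 1 in each treatment and Camp had 1 in KLA, so these peaks do not set macrophages apart from neutrophils.

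AP-1 is a family of leucine zipper proteins that bind DNA as dimers. Fos does not form stable dimers with itself and is known to bind DNA paired with a Jun family protein, and in macrophages its gene is switched on rapidly by Toll-like receptor signals. The usual sites are the TRE and, which is 1 base longer, the CRE. PU.1 and CEBPa are lineage factors that open much of the regulatory DNA of macrophages.

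The sequences below show the kinds of DNA found at Fos-alone loci. Each is the central 200 bp of a locus on the plus strand of GRCm38 (mm10), read from RefSeq. In the first 3, which had the highest Fos counts among loci with a TRE, capitals mark the TRE (TGACTCA or TGAGTCA, searched on both strands). They lay near 2010111I01Rik (chr13:63066710-63066909), upstream of Bcl6 (chr16:24188084-24188283) and near Cdkn2aipnl (chr11:51917964-51918163).
2010111I01Rik: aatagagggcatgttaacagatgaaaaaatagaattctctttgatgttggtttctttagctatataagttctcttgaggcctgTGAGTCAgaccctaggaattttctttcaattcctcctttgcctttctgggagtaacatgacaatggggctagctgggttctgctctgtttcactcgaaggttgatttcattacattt
Bcl6: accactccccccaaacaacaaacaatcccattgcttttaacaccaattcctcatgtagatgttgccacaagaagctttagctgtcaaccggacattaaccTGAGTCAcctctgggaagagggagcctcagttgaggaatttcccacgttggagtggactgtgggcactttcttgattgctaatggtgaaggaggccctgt
Cdkn2aipnl: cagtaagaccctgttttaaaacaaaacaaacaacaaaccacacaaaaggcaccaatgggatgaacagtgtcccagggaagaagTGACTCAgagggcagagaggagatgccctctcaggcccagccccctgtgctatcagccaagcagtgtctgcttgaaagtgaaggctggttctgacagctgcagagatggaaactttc
The next 4 had the highest Fos counts among loci that also held a Fos peak in Veh, and capitals mark the CCAAT box, which reads ATTGG where it lies on the minus strand. They lay just upstream of Cnot3 (chr7:3645011-3645210), Tnrc6b (chr15:80711061-80711260), Stip1 (chr19:7040048-7040247) and Eif2ak3 (chr6:70844255-70844454).
Cnot3: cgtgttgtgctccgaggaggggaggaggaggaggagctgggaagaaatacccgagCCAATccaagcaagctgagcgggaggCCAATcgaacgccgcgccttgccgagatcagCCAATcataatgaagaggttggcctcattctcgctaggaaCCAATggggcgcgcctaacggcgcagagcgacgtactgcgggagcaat
Tnrc6b: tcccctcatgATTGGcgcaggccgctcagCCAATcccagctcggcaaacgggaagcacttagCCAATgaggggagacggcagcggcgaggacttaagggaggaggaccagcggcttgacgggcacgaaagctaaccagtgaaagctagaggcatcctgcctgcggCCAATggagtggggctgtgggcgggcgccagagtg
Stip1: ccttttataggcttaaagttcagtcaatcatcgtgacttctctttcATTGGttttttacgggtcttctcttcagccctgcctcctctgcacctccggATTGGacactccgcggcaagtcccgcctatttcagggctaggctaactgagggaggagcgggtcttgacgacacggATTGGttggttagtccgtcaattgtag
Eif2ak3: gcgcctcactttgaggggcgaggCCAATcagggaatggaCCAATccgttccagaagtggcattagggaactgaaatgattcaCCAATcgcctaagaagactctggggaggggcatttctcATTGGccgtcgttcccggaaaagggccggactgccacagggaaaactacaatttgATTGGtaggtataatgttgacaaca
The last, upstream of Dot1l (chr10:80752427-80752626), had the highest Fos count among loci with neither feature, and capitals mark the site nearest its centre that differs from the TRE by 1 base.
Dot1l: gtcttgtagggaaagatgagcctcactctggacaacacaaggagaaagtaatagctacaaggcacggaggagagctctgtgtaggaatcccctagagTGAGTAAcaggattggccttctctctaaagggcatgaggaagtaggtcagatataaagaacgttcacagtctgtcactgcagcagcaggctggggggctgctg

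Fos-alone loci were weak Fos peaks. Their Fos counts ran from 24 to 78, with a median of 30.0 and an SD of 7.52 over 1162 loci, against a median of 43.0 at loci with Fos and another monomer and 60.0 at the 15622 Fos loci at a Veh peak of ATF3, Jun or JunD. The strongest ranked 5904 of 24365 Fos peaks, and 41 loci (3.53%) lay in the stronger 50% of the Fos list. The highest score for reproducibility was held by 75 of them (6.45%), against 58.3% of all Fos peaks. Each locus was a single Fos peak with a median width of 235 bp. The plot of Fos counts shows the Fos-alone loci packed against the lower end of the list.

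**Figure D1:**
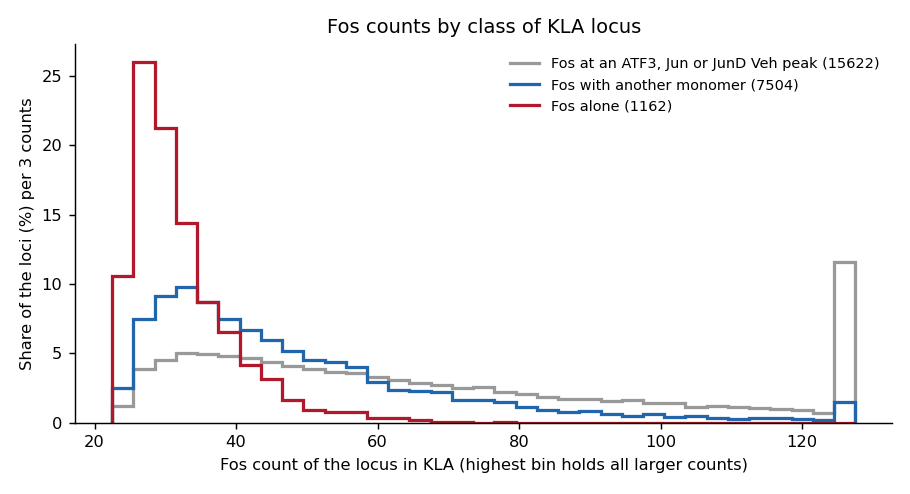
Distribution of Fos counts in KLA (x axis, counts per locus) as the percentage of the loci of each class in bins of 3 counts (y axis), for Fos-alone loci, loci with Fos and another monomer, and Fos loci at a Veh peak of ATF3, Jun or JunD. Fos-alone loci have a median of 30.0 and none exceeds 78, while the medians of the other classes are 43.0 and 60.0.

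The overlap rule left other monomers close by at some loci. Another AP-1 peak of the 8 lists used for exclusion lay within 100 bp of 66 loci (5.68%), within 500 bp of 216 (18.6%) and within 1000 bp of 322 (27.7%), and the median gap was 3920 bp. The nearest such peak was ATF3 in KLA at 318 loci, JunD in KLA at 180 and Jun in KLA at 133. Just inside the rule, a locus with a Fos count of 35 at chr2:103870273-103870485, whose nearest coding start site is that of Caprin1, abutted a Jun KLA peak with a gap of 0 bp. The loci at chr2:140844481-140844724 in an intron of Macrod2 and at chr4:135876417-135876623 near Pnrc2, with counts of 53 and 40, had gaps of 1 bp. Just outside, the Fos peaks nearest Pgap2 (count 28), Arf2 (count 37) and Sp1 (count 43) were dropped for overlaps of 2, 4 and 6 bp.

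Of the 10 strongest loci, 3 held a TRE, 5 were promoters with CCAAT boxes and a Fos peak in Veh, and 2 were neither. The strongest, in an intron of 2010111I01Rik (chr13:63066684-63066935), which encodes an aminopeptidase, had a Fos count of 78 and held a TRE. It had no PU.1 peak in Veh and a PU.1 count of 48 in KLA, and the Balb/cJ KLA lists gave 84 for Fos, 52 for JunD and 27 for JunB. The locus 199331 bp upstream of Bcl6, a transcriptional repressor (chr16:24188066-24188300), had a Fos count of 67 and a TRE, and an ATF3 peak lay 42 bp away. The intergenic locus at chr11:51917953-51918173 had a count of 60 and a TRE. None of these 3 held a Fos peak in Veh.

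Cnot3, which encodes a subunit of the CCR4-NOT deadenylase, had a Fos count of 70 at chr7:3644994-3645227, centred 158 bp upstream of its start site, and a Fos count of 112 in Veh. Tnrc6b, a partner of Argonaute in microRNA silencing, had 63 in KLA and 90 in Veh. Stip1, which links the Hsp70 and Hsp90 chaperones, had 63 and 71. Eif2ak3, the kinase PERK of the unfolded protein response, had 63 and 60, and G3bp1, a protein of stress granules, had 62 and 83. Whether the KLA and Veh counts were scaled to each other is not given in the sources used here, so their difference was not read. These 5 loci held from 3 to 5 CCAAT boxes and no TRE, and lay from 107 to 180 bp upstream of a start site. The other 2 of the 10, upstream of the histone methyltransferase gene Dot1l (count 71) and in an intron of Anxa2, which encodes an annexin (count 66), had neither a TRE nor a Fos peak in Veh, and both lay at PU.1 peaks, with PU.1 counts in Veh of 348 and 305.

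Fos peaks of Veh-treated cells lay at 99 Fos-alone loci (8.52%, 95% Wilson interval 7.05 to 10.3), although these loci lacked ATF3, Jun and JunD in Veh. The share was 0.786% at loci with Fos and another monomer, 0.536% at ATF3-alone loci, 1.02% at JunD-alone loci and 3.03% over all 43246 KLA loci. These loci were therefore not new for Fos itself. They were chosen for description after their values were seen, so their features are given without a test. Their Fos counts in KLA had a median of 38.0, against 30.0 at the other 1063 loci. In the Fos Veh list their counts ran from 14 to 112, with a median of 40 against 22.0 over the 1804 peaks of that list, and 84.8% of them exceeded that median. Fra2 peaks of Veh lay at 7 Fos-alone loci and JunB peaks at 0, from lists of 5329 and 463 peaks.

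All 99 loci with a Fos peak in Veh had their centre within 1 kb of an annotated start site, at a median distance of 90.0 bp. A CCAAT box, the element bound by the factor NF-Y in many promoters, was present in the central 200 bp of 98 of them (99.0%), and 87 (87.9%) held at least 2. Over all KLA loci 23.1% held the box, and at the other 1063 Fos-alone loci the share was 23.6%. Of 13237130 windows of 200 bp tiling the genome, 29.6% held the box and 5.54% at least 2. In 32851 RefSeq promoter windows of 300 bp, which are longer, the shares were 37.4% and 11.7%. None of the 99 loci held a TRE or a CRE, and 73 (73.7%) held a GC box (GGGCGG), the element bound by Sp1, against 10.6% of all KLA loci, 19.2% of promoter loci with Fos and another monomer and 35.7% of the RefSeq promoter windows.

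The CCAAT boxes often came in arrays. The 99 loci held 268 boxes, with 36 loci holding 2, 24 holding 3, 22 holding 4 and 5 holding 5. The box nearest the centre lay at a median of 15.5 bp from it, against 43.5 bp at the other Fos-alone loci with a box, although a locus with several boxes has one near its centre more readily. Of 170 neighbouring pairs, 122 (71.8%) lay on the same strand, and 32 (18.8%) had starts 30 to 33 bp apart, with 31 bp the commonest spacing (13 pairs). Most boxes, 244 of 268 (91.0%), lay upstream of the nearest coding start site. The Eif2ak3 and Cnot3 sequences printed above show such arrays. The wider Fos Veh list divided in the same way. Of its 1804 peaks, 602 met no ATF3, Jun or JunD peak of Veh, and of these 96.0% held a CCAAT box, 1.5% a TRE and 94.0% lay at a promoter, whereas the shares were 45.1%, 42.3% and 45.3% at the other 1202. A Fos peak in KLA lay at 160 of the 602, and 98 of the 602 were in a Fos-alone locus. Promoter Fos-alone loci without a Fos peak in Veh differed from these, since 43 of 177 (24.3%) held a CCAAT box and 69 (39.0%) held a TRE.

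**Figure D2:**
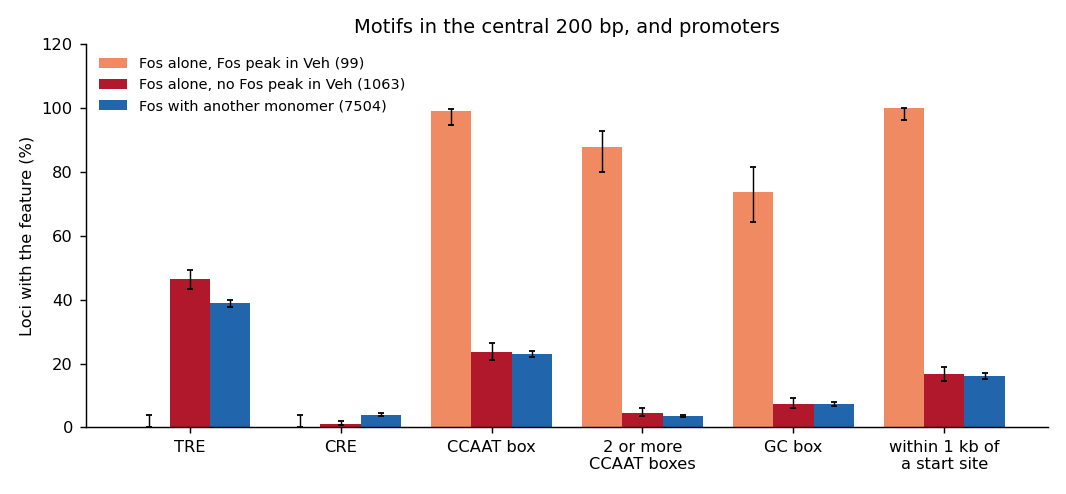
Percentage of loci (y axis, with 95% Wilson intervals) that hold each motif in their central 200 bp or lie within 1 kb of a start site (x axis), for Fos-alone loci with and without a Fos peak in Veh and for loci with Fos and another monomer. The loci with a Fos peak in Veh stand apart, with a CCAAT box in 99.0% and a TRE in 0, while the other Fos-alone loci hold a TRE in 46.4%.

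**Figure D3:**
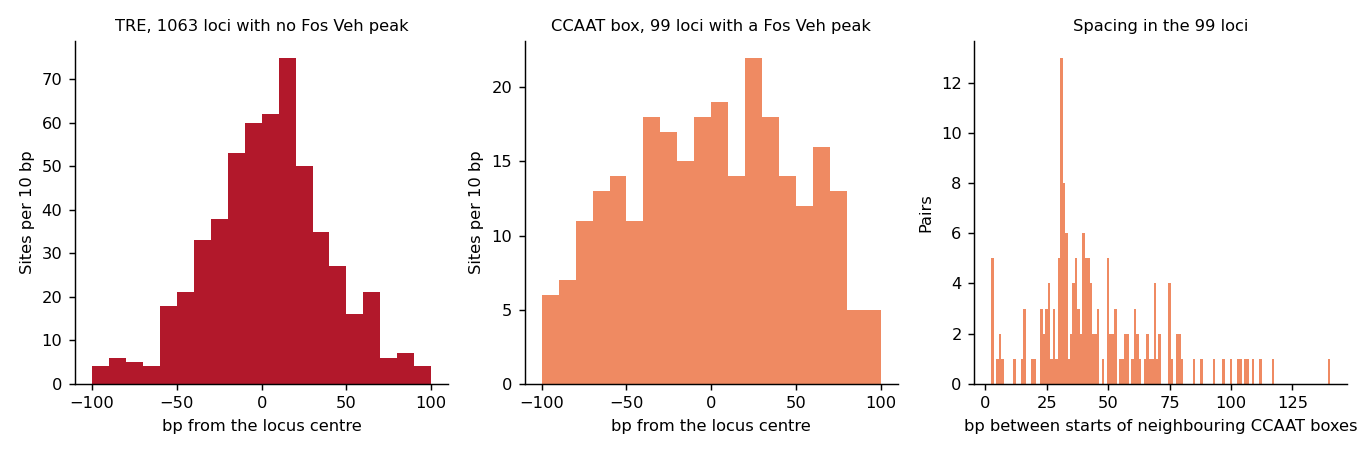
Left and middle, number of motif sites per 10 bp (y axis) by distance from the locus centre in bp (x axis), for the TRE at the 1063 Fos-alone loci without a Fos peak in Veh and the CCAAT box at the 99 with one. Right, number of neighbouring pairs of CCAAT boxes in the 99 loci (y axis) by the distance between their starts in bp (x axis), with the commonest spacing at 31 bp.

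The TRE was the leading motif of the remaining loci. It was present at 493 of 1162 Fos-alone loci (42.4%, interval 39.6 to 45.3), all of them among the 1063 without a Fos peak in Veh, where the share was 46.4%. The share was 30.4% over all KLA loci and 3.10% of genome windows of the same length. Against ATF3-alone loci (22.6%) the odds ratio was 2.52 (95% interval 2.20 to 2.89, adjusted exact p = 6.66e-39), and against JunD-alone loci (19.8%) it was 2.98 (2.52 to 3.52, adjusted exact p = 6.99e-38), in 2-sided Fisher exact tests with Benjamini-Hochberg adjustment over 18 tests. Against loci with Fos and another monomer (38.9%) the odds ratio was 1.16 (1.02 to 1.31, adjusted exact p = 0.0269). This call did not hold when peaks were joined by centres within 100 bp (1.01, adjusted exact p = 0.858) or by 50% reciprocal overlap (1.05, adjusted exact p = 0.472). It turned when 1 mismatch to the TRE was allowed (0.991, adjusted exact p = 0.939) and with the top IDR score only (0.764, adjusted exact p = 0.400). The odds ratio was higher with exclusion by all 6 Veh lists (1.35, adjusted exact p = 1.09e-05) and in the central 100 bp (1.25, adjusted exact p = 0.00106). It was 1.29 with no other AP-1 peak within 500 bp and 1.32 within bins of Fos count. The call thus depended on the processing.

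The TRE nearest the centre lay at a median of 20.5 bp from it, and 50 Fos-alone loci held at least 2 TREs. The base before the TRE was G at 38.6% and A at 24.3% of the 544 TREs in Fos-alone loci, against 35.9% and 28.7% with Fos and another monomer and 27.3% and 39.3% at ATF3-alone loci. A further 452 of the 1063 loci (42.5%) held a site with 1 mismatch, and 103 of these held TGACTAA and 90 TGAATCA. The share with 1 mismatch was 45.3% with Fos and another monomer, 47.4% with ATF3 alone and 41.6% with JunD alone. Such sites are thus not particular to Fos-alone loci. The CRE (TGACGTCA, TGAGCTCA, TGACCTCA or TGAGGTCA) was rare, at 12 Fos-alone loci (1.03%, interval 0.592 to 1.8), against 4.02% at loci with Fos and another monomer, 10.1% at ATF3-alone loci, 6.91% over all KLA loci and 1.60% of genome windows. Among 6 other motifs, chosen after values were seen and not tested, the kappaB motif was at 10.1% of Fos-alone loci (15.8% with Fos and another monomer, 8.28% of all KLA loci), NFAT (TGGAAA) at 16.8% (24.2% and 19.6%), C/EBP (TTGCNNAA) at 8.35% (12.9% and 15.7%), PU.1 (AGGAAGT) at 15.1% (14.8% and 18.6%), Runx (TGTGGTT) at 7.66% (6.92% and 7.09%) and IRF at 2.84% (4.76% and 4.24%).

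Position was read as the distance from the centre of a locus to an annotated start site. The centre was within 1 kb of a start site at 276 loci (23.8%, interval 21.4 to 26.3), against 16.1% with Fos and another monomer (odds ratio 1.63, 1.40 to 1.89, adjusted exact p = 9.71e-10), 17.4% with ATF3 alone (1.48, 1.27 to 1.73, adjusted exact p = 2.25e-06) and 21.5% over all KLA loci. JunD-alone loci were at promoters at 32.2% (0.655, 0.553 to 0.776, adjusted exact p = 1.70e-06). This call was lost when the classes were rebuilt from the strongest 50% of each list, which gives largely other loci (0.912, adjusted exact p = 0.569). It turned with the top IDR score only (1.74, adjusted exact p = 0.0347). The higher share than with Fos and another monomer or ATF3 alone rested on the loci with a Fos peak in Veh. With loci at any of the 6 AP-1 Veh lists left out of every class, the share was 16.4% of 1058 loci, and the odds ratio was 1.09 (adjusted exact p = 0.383) against Fos with another monomer and 0.971 (adjusted exact p = 0.784) against ATF3 alone. Of all Fos-alone loci, 411 (35.4%) lay in introns, 33 (2.84%) in exons and 442 (38.0%) between genes, outside promoters, and 417 (35.9%) lay over 10 kb from a start site. They were spread over the chromosomes, with 120 on chromosome 2 (10.3%, against 8.63% of all KLA loci) and 104 on chromosome 11 (8.95% against 7.52%).

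Within the Fos-alone loci, the promoter share was 14.8% at counts of 24 to 26 and 43.8% at counts of 41 to 78, while the share with a Fos peak in Veh went from 1.27% to 28.1%. At loci with Fos and another monomer of the same counts the promoter share was 18.9% and 15.2%. The TRE share at Fos-alone loci was 46.4% in the lowest of these bins and 36.3% in the highest. Between these bins the TRE share lay from 41.2% to 43.5%, and the median Fos count was 30.0 both with and without a TRE. None of these shares was tested.

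PU.1 was less common at Fos-alone loci than at loci where Fos came with other monomers. A PU.1 peak was present in KLA at 254 loci (21.9%, interval 19.6 to 24.3) and in Veh at 183 (15.7%), against 52.2% and 42.3% over all KLA loci. Loci with Fos and another monomer had PU.1 in KLA at 44.5% (odds ratio 0.349, 0.302 to 0.404, adjusted exact p = 1.77e-50) and JunD-alone loci at 43.6% (0.362, 0.306 to 0.429, adjusted exact p = 2.20e-33). ATF3-alone loci had 22.1%, with an odds ratio of 0.986 and an interval of 0.843 to 1.15 (adjusted exact p = 0.925). Fos counts differ between the classes, and within bins of 10% of the Fos peaks by count the Mantel-Haenszel odds ratio against Fos with another monomer was 0.452 (chi-square test, adjusted p = 3.71e-24).

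Among Fos-alone loci, PU.1 and the TRE were mostly apart. PU.1 peaks in KLA lay at 43 of 493 loci with a TRE (8.72%, interval 6.54 to 11.5) and at 211 of 669 without one (31.5%, 28.1 to 35.2), and at 38 of the 99 loci with a Fos peak in Veh (38.4%, 29.4 to 48.2). At loci with Fos and another monomer the shares were 27.5% with a TRE and 55.3% without. The PU.1 motif was in 31.5% of the 254 loci with PU.1 in KLA and in 10.6% of the other 908. These contrasts were seen in the data and were not tested.

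PU.1 was listed in both treatments at 146 loci, in KLA only at 108 and in Veh only at 37, a ratio of 2.92 (exact binomial test against a ratio of 1, adjusted p = 5.94e-09). The ratio over all KLA loci was 3.65, so the change is not particular to Fos-alone loci, and it was 17.6 at loci with Fos and another monomer. All these loci were chosen by peaks in KLA, and the lowest PU.1 count was 110 in the Veh list and 25 in the KLA list. The 3 strongest Fos-alone loci with PU.1 in KLA only were those at 2010111I01Rik, Cnot3 and Tnrc6b, with PU.1 counts of 48, 29 and 38.

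CEBPa was rare. Its peaks lay at 57 Fos-alone loci in KLA (4.91%, interval 3.81 to 6.30) and at 29 in Veh (2.50%), against 28.7% and 21.4% over all KLA loci. The KLA share was lower than with Fos and another monomer (22.2%, odds ratio 0.181, 0.138 to 0.237, adjusted exact p = 1.07e-53), with ATF3 alone (8.73%, 0.539, 0.405 to 0.718, adjusted exact p = 1.04e-05) and with JunD alone (8.09%, 0.586, 0.426 to 0.806, adjusted exact p = 0.000978). CEBPa was in KLA only at 38 loci and in Veh only at 10 (ratio 3.8, exact binomial test against a ratio of 1, adjusted p = 6.17e-05), against ratios of 2.77 over all KLA loci and 31.6 with Fos and another monomer. All these loci were chosen by AP-1 peaks in KLA, and that selection alone can give a ratio above 1. Whether 3.8 differs from 2.77 was not tested. The CEBPa list of KLA is longer than that of Veh, with 14802 peaks against 12892. The ratio was 2.33 with lists of equal length (exact binomial test, unadjusted p = 0.0166) and 7.17 with 50% reciprocal overlap. The strongest Fos-alone loci with CEBPa in KLA only lay 3508 bp upstream of Slc39a14, which encodes a zinc and iron importer (CEBPa count 48), in an intron of Macrod2 (54) and at chr7:126740188-126740458 (56). PPARg in Veh lay at 149 loci (12.8%), against 42.5% over all KLA loci, and at 40 of the 99 loci with a Fos peak in Veh (40.4%).

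**Figure D4:**
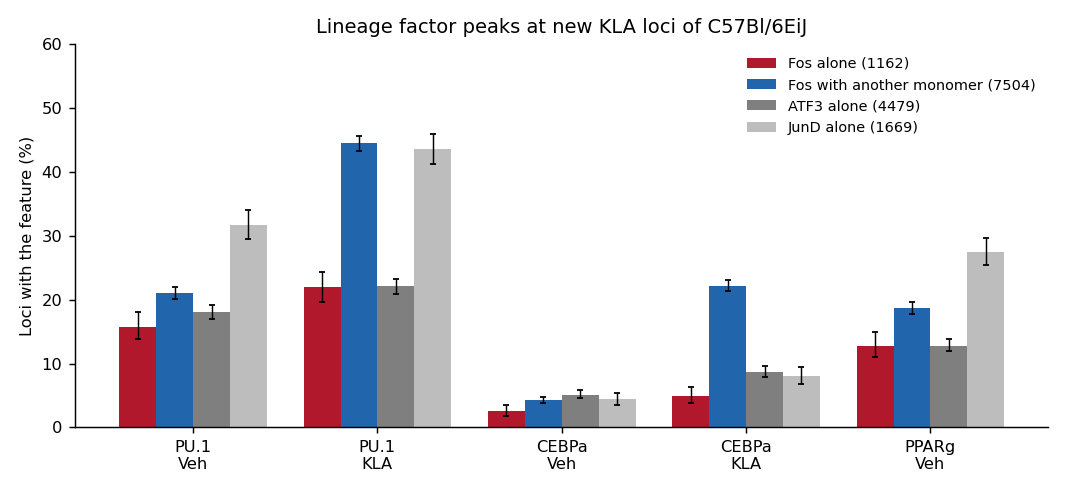
Percentage of loci (y axis, with 95% Wilson intervals) that overlap a PU.1, CEBPa or PPARg peak of C57Bl/6EiJ cells (x axis), for Fos-alone, Fos with another monomer, ATF3-alone and JunD-alone loci. Fos-alone loci have 21.9% with PU.1 and 4.91% with CEBPa in KLA, against 44.5% and 22.2% where Fos comes with another monomer.

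In the Balb/cJ lists, Fos was found again at 558 of 1162 Fos-alone loci (48.0%, interval 45.2 to 50.9), against 75.2% over all KLA loci. The share was lower than at loci with Fos and another monomer (84.8%, odds ratio 0.166, 0.145 to 0.189, adjusted exact p = 4.18e-153) and also lower within those bins of Fos count (0.283, chi-square test, adjusted p = 2.16e-75). ATF3-alone loci, which had no Fos peak in C57Bl/6EiJ, had a Balb/cJ Fos peak at 40.6% (1.35, 1.19 to 1.54, adjusted exact p = 7.84e-06), and JunD-alone loci at 48.2% (0.992, 0.854 to 1.15, adjusted exact p = 0.939). The Balb/cJ Fos list is longer than that of C57Bl/6EiJ, with 40459 peaks against 24365. Cut to the C57Bl/6EiJ length, it held 18% of the Fos-alone loci, and the odds ratio was 2.37 against ATF3 alone (adjusted exact p = 1.13e-18) and 1.64 against JunD alone (adjusted exact p = 7.30e-06). Fos-alone loci were selected for a Fos peak in C57Bl/6EiJ, and ATF3-alone and JunD-alone loci for lacking one. The selection alone can thus give a higher share, and these tests cannot tell it from another difference. With the classes rebuilt from the strongest 50% of each C57Bl/6EiJ AP-1 list, which gives largely other loci, the call against ATF3 alone was lost (0.971, adjusted exact p = 0.846). The Fos counts at these 558 loci in Balb/cJ had a median of 47.0, against 65.0 over that list, and 21.5% lay in its stronger 50%. Loci whose Fos peak was found again held a TRE at 45.2% (interval 41.1 to 49.3) and a CCAAT box at 24.4% (21 to 28.1), and those where it was not held them at 39.9% (36.1 to 43.9) and 35.3% (31.6 to 39.2). The share found again was 36.3% at C57Bl/6EiJ Fos counts of 24 to 26 and 61.0% at counts of 41 to 78, against 68.2% and 90.6% at loci with Fos and another monomer of the same counts.

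Other monomers were present in Balb/cJ at many loci that held Fos alone in C57Bl/6EiJ. ATF3, Jun, JunD or JunB was listed after KLA at 505 loci (43.5%, interval 40.6 to 46.3), against 80.8% over all KLA loci, 86.2% with Fos and another monomer (odds ratio 0.123, 0.107 to 0.140, adjusted exact p = 7.74e-207), 51.4% with ATF3 alone (0.726, 0.638 to 0.827, adjusted exact p = 2.25e-06) and 56.3% with JunD alone (0.598, 0.514 to 0.695, adjusted exact p = 4.84e-11). Each class compared here was selected in C57Bl/6EiJ for holding a monomer other than Fos, and Fos-alone loci for lacking them. The selection alone can thus give a lower share, and these tests cannot tell it from another difference. In Balb/cJ, ATF3 was at 331 Fos-alone loci (28.5%), JunD at 315 (27.1%), JunB at 127 (10.9%) and Jun at 43 (3.70%), in lists of 36821, 33850, 21667 and 11317 peaks. The shares in the same order were 38.1%, 27.1%, 10.7% and 3.33% at ATF3-alone loci. With Fos and another monomer they were 74.8%, 68.9%, 56.1% and 21.7%. Fos alone was listed at 208 loci in Balb/cJ (17.9%, interval 15.8 to 20.2), Fos with another monomer at 350 (30.1%), another monomer without Fos at 155 (13.3%) and none of the 5 monomers at 449 (38.6%). Loci with Fos alone in both strains were thus fewer than those where Balb/cJ had Fos with a further monomer. For Fos alone, Fos with another monomer, another without Fos and none, ATF3-alone loci had 11.3%, 29.3%, 22.1% and 37.3%. JunD-alone loci had 14.6%, 33.7%, 22.6% and 29.2% in that order, so this pattern is not particular to Fos-alone loci.

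All 5 monomers were listed in Balb/cJ at 16 Fos-alone loci (1.38%), against 1.12% with ATF3 alone, 0.599% with JunD alone and 16.9% with Fos and another monomer. The strongest 3 by their C57Bl/6EiJ Fos count were upstream of Dot1l (Balb/cJ Fos count 94, JunD 65, JunB 43, ATF3 36 and Jun 25), at the start site of Abr (chr11:76493802-76494058; Fos 112, JunD 59, ATF3 45, JunB 31 and Jun 23), and 47039 bp upstream of Osbpl3 (chr6:50503128-50503352; Fos 244, JunD 131, ATF3 116, JunB 101 and Jun 52). The C57Bl/6EiJ Fos counts there were 71, 57 and 54. The strongest 3 loci with no Balb/cJ AP-1 peak in either treatment were the CCAAT promoters of Tnrc6b, Eif2ak3 and Maf1, a repressor of RNA polymerase III, the last with Fos counts of 60 in KLA and 94 in Veh at chr15:76351078-76351332. Of the 99 loci with a Fos peak in Veh, 36 (36.4%, interval 27.6 to 46.2) had a Balb/cJ Fos peak in KLA. The Balb/cJ Fos list of Veh was empty, so it could not be searched for them.

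**Figure D5:**
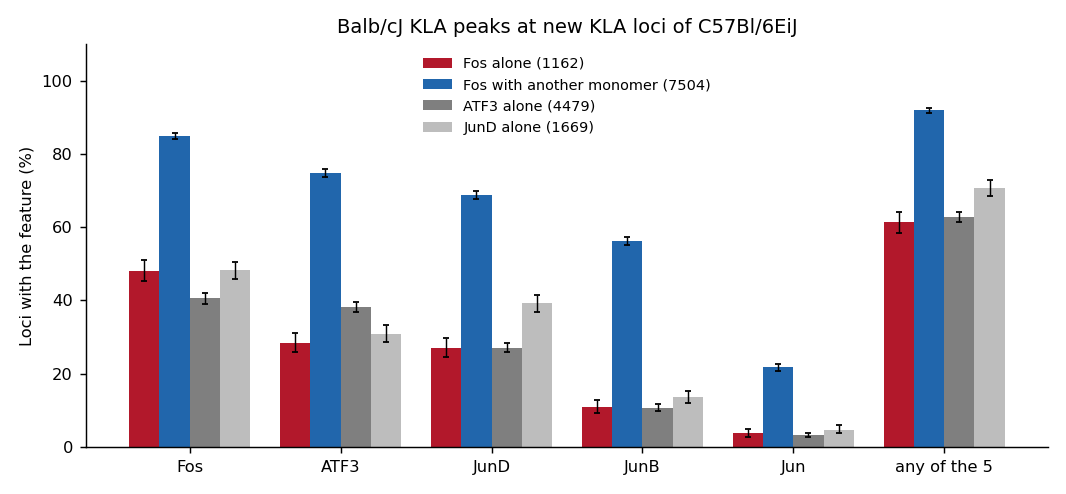
Percentage of loci (y axis, with 95% Wilson intervals) that overlap a Balb/cJ KLA peak of each AP-1 monomer or of any of the 5 (x axis), for the 4 classes of C57Bl/6EiJ loci. Fos-alone loci have a Fos peak at 48.0%, an ATF3 peak at 28.5% and a peak of any monomer at 61.4%, against 84.8%, 74.8% and 91.9% where Fos comes with another monomer.

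A Fos-alone locus lay in or within 5 kb of 884 of 21911 protein-coding genes (4.03%), and 817 of these had 1. A locus with Fos and another monomer lay there at 3445 of the 21911 genes (15.7%). Among 37 cytokine and chemokine genes only Il1rn, which encodes the interleukin-1 receptor antagonist, had one (2.70%), 3596 bp upstream of its start site with a Fos count of 29, and 26 (70.3%) had a locus with Fos and another monomer. Among 38 immediate early genes only Ier5 had one (2.63%), 100 bp upstream of its start site, with Fos counts of 41 in KLA and 20 in Veh and a JunD KLA peak 12 bp away. The list of NFkB subunits and feedback genes had 6 of 25 (24%), and 20 of its genes (80.0%) had a locus with Fos and another monomer. These were Rel and Nfkb1, which encode NFkB subunits, Nfkbie, which encodes an inhibitor of NFkB, Cyld and Tnip1, which restrain the pathway, and Tnfaip2. The Rel locus, in an intron, had a Fos count of 44 and a TRE, and the Cyld locus, at its promoter, had counts of 34 in KLA and 38 in Veh and 3 CCAAT boxes.

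The interferon list had 2 of 26 genes (7.69%), Oas1a and Cd274, and the macrophage lineage list 2 of 26 (7.69%), Mitf and Itgam. The actin and adhesion list had 2 of 26 (7.69%), Lcp1 and Marcksl1, and the housekeeping list 1 of 25 (4.00%), H3f3b. The share over all protein-coding genes was 4.03%, and these small counts were not tested. A locus with Fos and another monomer lay at 50.0%, 38.5%, 46.2% and 52.0% of these lists in that order, against 15.7% of all genes. The Mitf loci both held a TRE and had Fos counts of 32 and 25. At Marcksl1, 191 bp upstream of the start site, the C57Bl/6EiJ Fos count was 36. The Balb/cJ lists gave 254 for Fos, 155 for ATF3, 132 for JunD, 81 for JunB and 51 for Jun. Counts of C57Bl/6EiJ and Balb/cJ come from separate lists, and their difference was not read. H3f3b, a histone H3.3 gene, had 4 CCAAT boxes and Fos counts of 45 in KLA and 40 in Veh. The genes with most loci were Gm20388, an annotation that spans several other genes on chromosome 8 (7 loci), Etv6, an ETS family repressor (4), and, among genes with 3, Frmd4a and Foxp1. The 4 Etv6 loci lay in introns, had Fos counts of 29, 26, 40 and 34, and 3 held a TRE. Those of Frmd4a, a scaffold protein of cell polarity, had counts of 46, 48 and 31 and were all found again in Balb/cJ, with Fos counts of 66, 61 and 51. Those of Foxp1, a forkhead repressor, had counts of 35, 30 and 26, with 50, 45 and 45 in Balb/cJ. The 3 weakest loci of all, with counts of 24, lay beyond Onecut1, 42911 bp from its start site, and 14787 and 89452 bp upstream of Vma21 and Zdhhc15, and each held a TRE.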

How the data were processed

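ChIP-seq peak lists of TGEMs were analysed, 1 list per condition. The authors mapped reads to mm10, or to a Balb/cJ genome with positions returned to mm10, with Bowtie2, called peaks with HOMER (size 200) against input, and kept peaks with an IDR under 0.05 over replicates (idr 2.0.3). The deposited count of each peak is a whole number, and how the replicates were combined in it or scaled is not given in the sources used here. The deposited score is the scaled IDR, from 540 to 1000.

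Python 3.11.15, pandas 2.3.3, numpy 2.4.6 and scipy 1.17.1 were used. Peaks were merged into loci by at least 1 bp, and the same overlap defined each readout. Motifs were searched on both strands in the central 200 bp of GRCm38, and start sites and genes came from GENCODE M21 (55450 genes). Shares carry 95% Wilson intervals. The 6 readouts were compared with 3 other classes by Fisher exact tests, with Woolf intervals for odds ratios and adjustment over the 18 tests. PU.1 and CEBPa in KLA against Veh were compared by the exact binomial test, adjusted over both. Overlap, odds ratio and motif code were tested on simulated data. The members, gene lists and tests were chosen with earlier results of these data known. Named loci followed fixed rules: the 10 with the highest Fos count, the 3 highest with a TRE, with PU.1 or CEBPa in KLA only, with all or no Balb/cJ monomers, the 3 lowest, the 3 nearest the overlap threshold on each side, the 5 genes with most loci, and genes of 7 lists. The loci with a Fos peak in Veh and the motifs other than the TRE were singled out after their values were seen. Alternatives changed the overlap rule, the Veh lists, the peak strength, the motif and promoter windows and the Balb/cJ lists. The deposited counts give no library totals, so list lengths and ranks stand in for depth. Some marker and named genes are not reported here. Input samples were not analysed here.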

Additional observations from a re-analysis of the deposited data

Results flagged for a closer look

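Veh lists of the other strain and of the PPARg knockout, which entered no comparison, held AP-1 peaks at Fos-alone loci, where the C57Bl/6EiJ Veh lists of the same monomers hold none by selection. In Balb/cJ, JunD was listed in Veh at 11.5% of the 1162 loci, ATF3 at 3.44% and Jun at 1.81%. In PPARgKO cells, whose labels name no driver of the deletion, ATF3 was listed in Veh at 8.18% and JunD at 6.63%. Over all 43246 KLA loci the shares in the same order were 48.2%, 37.8%, 23.5%, 49.9% and 30.4%. What sets these peaks apart from the C57Bl/6EiJ lists was not tested.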

How the results depend on the processing

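Of 158 values under alternatives, 131 kept their direction and their side of the threshold. Odds ratios against Fos with another monomer kept both for PU.1, CEBPa and both Balb/cJ readouts in every alternative run, as did those of the TRE against ATF3 alone and JunD alone. The TRE odds ratio against Fos with another monomer was 1.01 with centres within 100 bp, 1.05 with reciprocal overlap, 1.16 (adjusted exact p = 0.130) with the strongest 50% of each list, 0.991 with 1 mismatch and 0.764 with the top IDR score only, which leaves 75 loci. In the other alternatives it lay from 1.25 to 1.35. Left with the strongest 50% of each list were 542 loci. The median Fos count was 57 at these 542 loci and 48.0 with the top score. Exclusion by all 6 Veh lists gave 1.09 and 0.971 for promoters against Fos with another monomer and ATF3 alone. Against JunD alone, promoters gave 0.912 (adjusted exact p = 0.569) with the strongest 50% and 1.74 (adjusted exact p = 0.0347) with the top score. Balb/cJ Fos gave 0.971 against ATF3 alone with the strongest 50%, and against JunD alone 1.64 with the list cut to length, 1.04 with all 6 Veh lists, 1.02 with no other AP-1 peak within 500 bp and 2.02 with the top score. Other Balb/cJ monomers gave 0.805 against ATF3 alone with lists cut to 50%, and 1.27 and 1.04 against ATF3 and JunD alone with the top score. CEBPa in KLA gave 1.08 and 1.17 against the same classes with the top score. PU.1 in KLA gave 1.09 against ATF3 alone with the strongest 50% and 1.20 with the top score. The ratio of loci gained to lost was 3.00 for PU.1 (exact binomial test, unadjusted p = 0.146) and 0.750 for CEBPa with the top score, on few loci. For CEBPa this ratio ran up to 7.17 with reciprocal overlap. The cause of these changes was not tested, and some alternatives hold fewer loci. No paired analysis was possible because the labels carry no replicate numbers and each condition has 1 list. Weak peaks near the limit of a list may be missed in another list, so absence of a peak is not absence of binding.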
